A study of Mus musculus with 4 samples.

Results

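Of 80465 autosomal sites of accessible chromatin in immortalized mouse embryonic fibroblasts (imMEFs), 485 were open in a single one of 4 cell lines. The assay was ATAC-Seq: a transposase, Tn5, cuts DNA that is not packed away and tags it for sequencing, so that reads pile up where chromatin is accessible. The table held 82325 sites in all, each with 1 normalized count per library. The 485 sites were chosen by those same counts: the largest value had to reach at least 50, and at least 3 times the second largest value plus 1. What the rule used is therefore given as a description, without a test.

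The 4 lines came from C57bl6 embryos at embryonic day 13.5. WT replicates 1 and 2 were HAT1+/+ and KO replicates 1 and 2 were HAT1-/-, that is, without HAT1, the enzyme that acetylates histone H4 before it is built into chromatin. All were made immortal by transfection of a plasmid that encodes the SV40 T antigen and were split to passage 5. A genotype was thus represented by 2 lines and a line by 1 library, so that what is particular to a line cannot be told apart from what is particular to its library, embryo or passage history. The fibroblast label was checked at promoters: all 12 fibroblast marker genes, among them Col1a1, Vim and Pdgfra, had a promoter site, with summed values between 3240 and 3641 per line. Vim (759 to 977) and Fn1 (602 to 701) had the largest values. Dcn had the smallest, with 18, 25, 9 and 30 in WT replicates 1 and 2 and KO replicates 1 and 2, all below the median of 52 over all autosomal sites. Promoter sites were also present at all 4 endothelial markers (sums 226 to 349), at 3 of 4 epithelial (112 to 196) and 3 of 4 neural markers (225 to 241), at 1 of 4 blood markers and 1 of 3 germ cell markers, and at none of 4 muscle markers. Accessible promoters at markers of other cell types were thus measured in every line, at summed values well below those of the fibroblast list, which is also the longest.

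Accessible sites fall into promoters, which are open in most cell types, and distal sites such as enhancers, which are often open in some cell types and closed in others. Fibroblasts from different parts of an embryo keep different sets of open enhancers at genes of position, such as homeobox and T-box transcription factors. AP-1, TEAD and RUNX proteins bind many of the enhancers of cultured fibroblasts, and CTCF binds sites that are largely shared among cell types.

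For each line, the site with the largest ratio among those reported here, that is, of the largest value to the second largest plus 1, shows what such a region looks like. The site with the largest ratio among promoter sites and the leading sites at genes of embryonic position were added, the latter chosen after their values had been seen. Each sequence is 300 bases around the centre of the site, forward strand of GRCm38 (mm10), taken from RefSeq's assembly. Capitals mark matches on either strand to the letters searched, TGANTCA for AP-1, CATTCC for TEAD, TGTGGTT for RUNX, CAGCTG for an E-box and a core of the CTCF motif. No 2 of these motifs overlapped in the windows shown. A gene's name here is that of the nearest protein-coding transcription start site (TSS), which need not be the gene a site acts on.
Open in WT replicate 1, chr14:109214896-109215195, Slitrk1: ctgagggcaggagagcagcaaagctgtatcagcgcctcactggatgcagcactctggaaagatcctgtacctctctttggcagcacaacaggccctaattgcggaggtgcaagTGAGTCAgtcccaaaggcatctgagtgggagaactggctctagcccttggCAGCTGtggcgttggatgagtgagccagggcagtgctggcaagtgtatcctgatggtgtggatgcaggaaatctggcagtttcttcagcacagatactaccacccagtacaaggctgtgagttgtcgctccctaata
Open in WT replicate 2, chr5:86911504-86911803, Ugt2b34: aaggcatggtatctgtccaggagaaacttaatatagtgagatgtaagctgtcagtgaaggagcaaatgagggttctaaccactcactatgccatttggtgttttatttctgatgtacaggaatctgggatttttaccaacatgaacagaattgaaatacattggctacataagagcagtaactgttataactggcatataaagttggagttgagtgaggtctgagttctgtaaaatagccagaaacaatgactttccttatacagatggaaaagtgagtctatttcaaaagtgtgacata
Open in KO replicate 1, chr14:51965314-51965613, Arhgef40: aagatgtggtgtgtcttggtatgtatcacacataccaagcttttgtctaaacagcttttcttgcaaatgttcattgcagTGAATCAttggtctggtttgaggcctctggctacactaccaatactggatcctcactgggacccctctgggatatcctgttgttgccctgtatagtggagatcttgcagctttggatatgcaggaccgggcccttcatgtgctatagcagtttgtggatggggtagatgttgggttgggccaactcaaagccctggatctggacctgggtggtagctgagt
Open in KO replicate 2, chr2:179390598-179390897, Cdh4: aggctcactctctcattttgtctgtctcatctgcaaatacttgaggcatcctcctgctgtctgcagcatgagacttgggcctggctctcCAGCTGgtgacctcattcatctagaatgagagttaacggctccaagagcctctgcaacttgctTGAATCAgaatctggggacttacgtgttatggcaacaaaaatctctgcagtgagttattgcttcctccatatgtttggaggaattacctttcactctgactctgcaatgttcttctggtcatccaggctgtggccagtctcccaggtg
Largest ratio of all promoter sites, open in KO replicate 1, chr3:138979415-138979714, Rap1gds1: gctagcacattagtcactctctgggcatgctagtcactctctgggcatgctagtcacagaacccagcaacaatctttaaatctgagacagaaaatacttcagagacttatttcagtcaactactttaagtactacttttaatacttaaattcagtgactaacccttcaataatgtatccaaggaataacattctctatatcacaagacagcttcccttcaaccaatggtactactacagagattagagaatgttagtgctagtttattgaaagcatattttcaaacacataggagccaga
Position gene, open in KO replicate 1, chr8:57314368-57314667, Hand2: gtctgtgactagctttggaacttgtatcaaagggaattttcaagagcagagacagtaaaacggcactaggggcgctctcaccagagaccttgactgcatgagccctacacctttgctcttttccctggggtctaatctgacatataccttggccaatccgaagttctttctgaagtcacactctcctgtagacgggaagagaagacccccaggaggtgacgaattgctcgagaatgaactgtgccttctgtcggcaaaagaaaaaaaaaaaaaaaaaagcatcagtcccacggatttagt
Position gene, open in WT replicate 1, chr13:55824232-55824531, Pitx1: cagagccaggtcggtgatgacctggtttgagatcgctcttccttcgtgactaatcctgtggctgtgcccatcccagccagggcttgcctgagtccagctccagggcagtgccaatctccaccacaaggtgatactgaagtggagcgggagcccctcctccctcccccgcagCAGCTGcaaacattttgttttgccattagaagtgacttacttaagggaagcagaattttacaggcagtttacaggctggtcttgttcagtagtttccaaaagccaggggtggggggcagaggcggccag
Of these 7 windows, 3 held an AP-1 match, 3 an E-box and none a TEAD match, and 3 held none of the 5 motifs. The intergenic sites near Slitrk1, a transmembrane protein of neurons, and Cdh4, a cadherin of cell adhesion, each held both an AP-1 match and an E-box.

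The site near Slitrk1 (chr14:109214890-109215200) had normalized counts of 50 in WT replicate 1, 1 in WT replicate 2, 1 in KO replicate 1 and 2 in KO replicate 2. It lay exactly at the floor of the rule, and its nearest protein-coding TSS was 300732 bp away. The site near Ugt2b34, a gene of the UDP-glucuronosyltransferases that conjugate steroids and drugs, read 123 in WT replicate 2 against 7 in WT replicate 1, 4 in KO replicate 1 and 5 in KO replicate 2.

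The intergenic site near Arhgef40, a guanine nucleotide exchange factor, held 59 in KO replicate 1, with 2 in WT replicate 1 and 0 in both WT replicate 2 and KO replicate 2. Repeats covered 66.0% of this site in the reference, although no near-identical second copy was found. Near Cdh4 (chr2:179390537-179390957), KO replicate 2 had 51, WT replicate 1 had 4, WT replicate 2 had 3 and KO replicate 1 had 4. The widest gap at a promoter site by ratio lay 1196 bp from the TSS of Gm43162, an annotated gene next to Rap1gds1, which encodes a regulator of small GTPases. There KO replicate 1 read 211, and WT replicate 1, WT replicate 2 and KO replicate 2 read 11, 6 and 8.

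The sites were spread over all 4 lines and both genotypes. WT replicate 1 had 108, WT replicate 2 had 106, KO replicate 1 had 99 and KO replicate 2 had 172, or 35.5% of the 485. The WT lines together had 214 and the KO lines 271. The median value was 77 in the open line, and 20, 14 and 9 in the other 3 lines, taken from the highest to the lowest at each site. Over all autosomal sites and libraries, the median value was 52 and the tenth percentile 16. The second line lay at or below that percentile at 170 sites, and at 8 sites the lowest line was at 0. The word "only" therefore describes a ratio, and many of these sites retained some signal elsewhere.

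**Figure D1:**
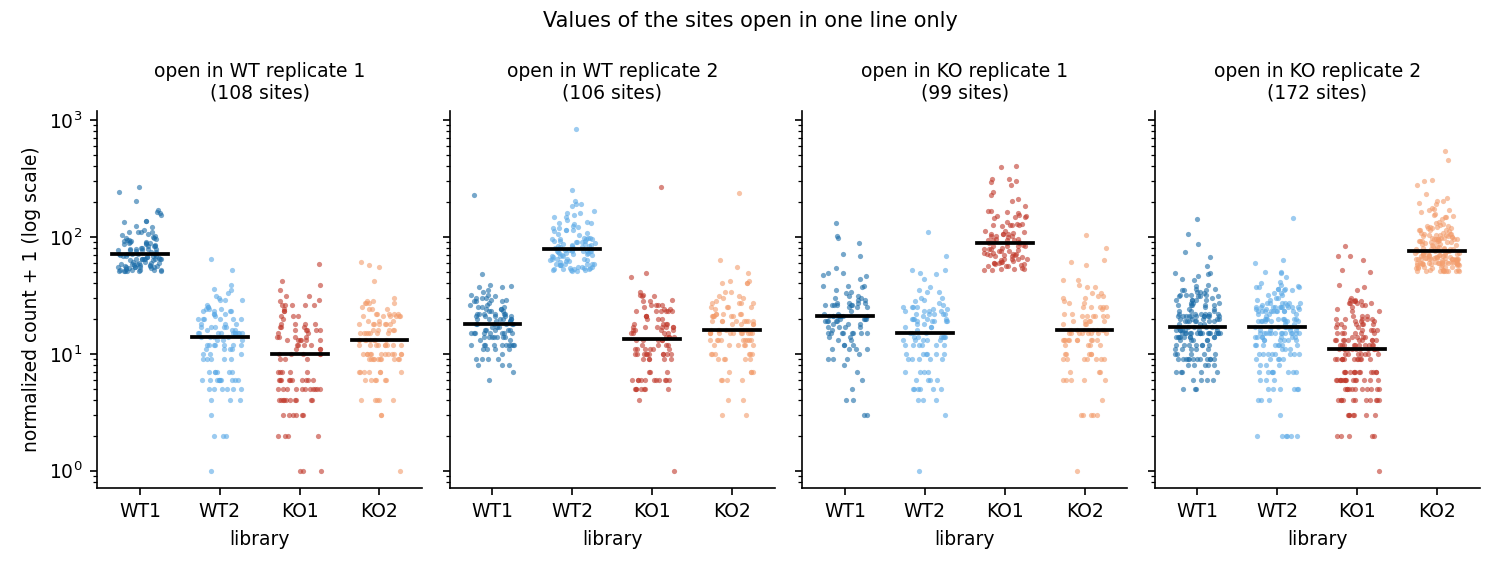
Normalized counts plus 1 (log scale) of the 485 sites in each library, in 4 panels by the line in which they were open. Each point is a site and each black line a median. The rule sets the gap between the open line, with medians from 70.5 to 88, and the others, with medians from 9 to 20.

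Sites just inside and just outside the ratio differed little in that ratio. A site near Aig1 just inside had 10, 57, 9 and 18 in WT replicates 1 and 2 and KO replicates 1 and 2. A site near Dusp6, a phosphatase that inactivates ERK kinases, lay just outside with 48, 49, 164 and 54 in the same order. A band of ratios 0.25 wide just above 3 held 122 sites, and one just below held 187. At the floor, 17 sites had a largest value of exactly 50, and 14 sites that met the ratio had 49.

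KO replicate 2, with the most such sites, was also the shallowest library. Depth estimated from the pattern of low values came to 9420000, 11400000, 7830000 and 5650000 reads in sites (rounded), in WT replicates 1 and 2 and KO replicates 1 and 2. A normalized count of 50 thus rested on about 59, 70, 46 and 33 reads. When the open line also had to hold at least 70 estimated reads, an alternative chosen after seeing the data, the numbers became 76, 104, 62 and 40, and KO replicate 2 went from the most to the fewest. That setting raises the floor unequally. In KO replicate 2 even a normalized count of 100 rested on about 66 reads, while in WT replicate 2 the floor of 50 stayed nearly as it was. The fall of KO replicate 2 is thus largely built into the setting. When the largest value had to reach 100 in every line alike, the numbers were 20, 28, 41 and 49. Scaling the libraries to equal totals gave 121, 108, 87 and 129. The order of the lines thus changed with the value required and, largely by construction, with the reads required. KO replicate 2 kept the most sites at a value of 100 and with equal totals.

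Some of the sites were strongly accessible in their line, but the median of 77 lay below the upper quartile of all autosomal values, 122. The largest value of all was 841 in WT replicate 2 at chr15:8806089-8806875, 95325 bp from Slc1a3, a glutamate transporter of astrocytes. WT replicate 1, KO replicate 1 and KO replicate 2 had 229, 268 and 238 there, so that the site was open in every line and stood out in one. The same held near Gc, which encodes the vitamin D binding protein, with 538 in KO replicate 2 and 142, 144 and 68 in WT replicate 1, WT replicate 2 and KO replicate 1. In all, 138 sites reached 100 in their line, 26 reached 200, 84 had a ratio of at least 5 and 14 one of at least 10. Of these 14, WT replicate 1 had 6, WT replicate 2 had 1, KO replicate 1 had 4 and KO replicate 2 had 3.

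The mirrored rule found sites closed in one line only, where the second smallest value was at least 50 and at least 3 times the smallest plus 1. There were 425, of which KO replicate 1 had 258, KO replicate 2 had 89, WT replicate 2 had 50 and WT replicate 1 had 28. KO replicate 1 thus had the fewest sites open alone and the most closed alone. KO replicate 1 was the second highest line at 27 of the 172 sites open in KO replicate 2, whereas WT replicate 1 was second at 72 and WT replicate 2 at 73. At the 99 sites open in KO replicate 1, KO replicate 2 was second at 24, WT replicate 1 at 55 and WT replicate 2 at 20. How often each line ranks second over all autosomal sites is not given here, so nothing is read from these counts.

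The sites lay far from promoters. Of the 485, 86 (17.7%, 95% Wilson interval 14.6 to 21.4) were within 3 kb of a TSS of any annotated gene, against 35.3% of all autosomal sites and 43.3% of the 52361 autosomal sites with a largest value of at least 50. Intergenic sites made up 44.1% (39.8 to 48.6) against 29.8% of all autosomal sites and introns 35.5% against 32.7%, while 13 sites were exonic. The intervals cover counting error only, and neighbouring sites are not independent of each other.

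The median distance to the nearest protein-coding TSS was 48.0 kb, against 13.2 kb for all autosomal sites and 8.85 kb for those with a largest value of at least 50. WT replicates 1 and 2 had medians of 66.2 and 56.3 kb and KO replicate 2 one of 56.5 kb, whereas that of KO replicate 1 was 19.2 kb. More than 100 kb separated 168 sites (34.6%) from any protein-coding TSS, against 13.8% of all autosomal sites. A median of 5 protein-coding genes lay in the 1 Mb around a site, against 9 for all autosomal sites, and 33 other accessible sites against 52. WT replicate 1 had the sparsest surroundings, with a median of 2 genes, and KO replicate 1, with 9, matched the median of all sites. The 425 sites closed in one line only lay at a similar median distance of 47.5 kb.

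**Figure D2:**
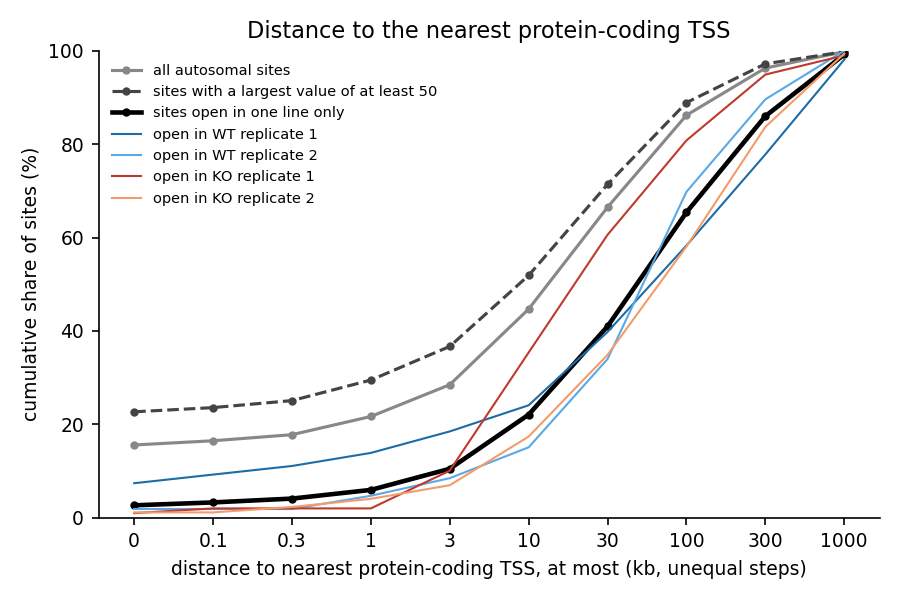
Cumulative share of sites (percent) within a given distance of the nearest protein-coding TSS (kb, unequal steps), for the 485 sites, for each line and for both comparison sets. Within 10 kb lay 22.1% of the 485 sites, 44.7% of all autosomal sites and 35.4% of the sites open in KO replicate 1.

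The promoter sites included both coding and non-coding genes. In WT replicate 1, the TSS of St8sia4, a polysialyltransferase, had 63 against 13 in WT replicate 2, 0 in KO replicate 1 and 12 in KO replicate 2. The TSS of Dmrta2, a transcription factor of the developing forebrain, had 266 in WT replicate 1 and 64, 58 and 54 in WT replicate 2, KO replicate 1 and KO replicate 2. In WT replicate 2, a site 1593 bp from the olfactory receptor gene Olfr91 had 89, and WT replicate 1, KO replicate 1 and KO replicate 2 had 17, 4 and 9. The low values at St8sia4 and Olfr91 lay below the median of all sites, while those at Dmrta2 lay above it.

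One promoter site is uncertain in its position. The site near Gm10330, open in WT replicate 2 with 96 against 7, 5 and 11 in WT replicate 1, KO replicate 1 and KO replicate 2, matched 8 places in the reference at 90% identity or more over 80% of its length. In all, 6 of the 485 sites (1.24%) matched more than 1 place, against 0.686% of all autosomal sites. How reads that match several places were treated is not given in the sources used here.

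In sequence, the 485 sites were less GC-rich than accessible sites in general. The median GC content of the central 300 bases was 44.3%, against 48.3% for all autosomal sites and 46.3% for the sites closed in one line only. It was lowest, 41.2%, in KO replicate 2. Promoters made up a smaller share of the 485 than of all autosomal sites, and GC content was not compared outside promoters. The AP-1 letters, shown in the Slitrk1, Arhgef40 and Cdh4 windows, were present in 46.4% of the sites and 37.7% of all autosomal sites. Outside promoters the shares were 49.6% and 45.9%, and 48.5% among autosomal sites with a largest value of at least 50. By line, they ran outside promoters from 41.3% in KO replicate 2 to 57.6% in WT replicate 1.

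TEAD letters were present in 32.4% of the sites against 24.7% of all autosomal sites, and outside promoters in 33.6% against 28.4%, or 29.6% with a largest value of at least 50. RUNX letters were in 13.4% against 10.3%, and in 14.1% of the sites closed in one line only. Outside promoters RUNX letters were in 13.5% of the sites and 12.2% of all autosomal sites. The E-box was in 18.4% against 18.9%. No site of the 485 held the CTCF letters, which allows a share of up to 0.619%, whereas 3142 of all autosomal sites (3.90%) held them. The 425 sites closed in one line only held none either. A match to such letters is no evidence of binding, and its absence says only that these letters were not in the window.

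Sites open in the same line lay near each other. Another site open in the same line was found within 1 Mb of 154 sites (31.8%), and one open in a different line near 95 (19.6%). Of 130 consecutive pairs within 1 Mb, 82 (63.1%) were open in the same line, where the squared shares of the 4 lines sum to 26.5%. Of 27 pairs that were neighbouring sites in the whole table, 23 were open in the same line. By line, the share with a same-line neighbour was 33.3% in WT replicate 1, 25.5% in WT replicate 2, 28.3% in KO replicate 1 and 36.6% in KO replicate 2. Of all autosomal sites, 5.92, 9.16, 9.72 and 10.6% lay within 1 Mb of a site open in those lines, in the same order, so that the gap to this background was widest in proportion for WT replicate 1.

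The longest chain, 6 sites open in KO replicate 2 over 357 kb, lay at Macc1, a regulator of MET receptor signalling (chr12:119314847-119672298). An intronic site there had 28 in WT replicate 1, 44 in WT replicate 2, 34 in KO replicate 1 and 155 in KO replicate 2. A site at 119456612 read 5, 8, 15 and 59 in the same order. KO replicate 2 was also the highest line at 6 of the 8 other sites of the stretch, which were less uneven. At the site starting at 119440357, within 3 kb of a TSS, the values were 161, 126, 124 and 194, so that the elevation was a matter of degree along the locus.

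**Figure D3:**
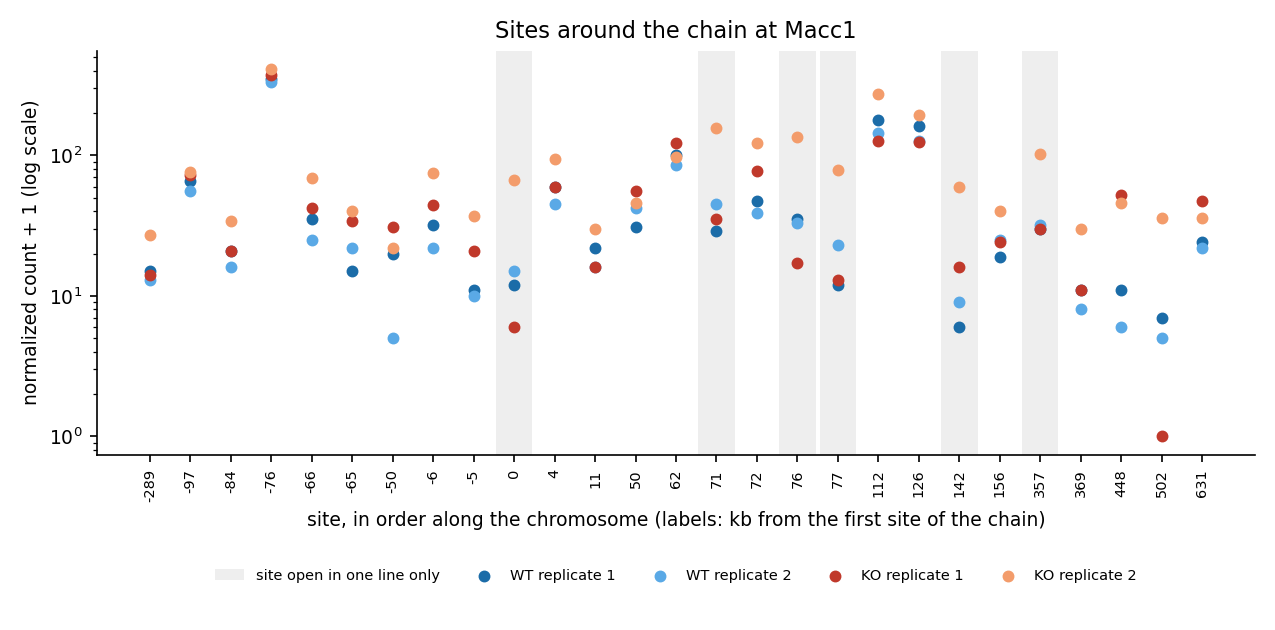
Normalized counts plus 1 (log scale) of the 27 sites within 300 kb of the Macc1 chain, in order along the chromosome, with distance from the first site of the chain as labels (kb). Grey bands mark the 6 sites open in KO replicate 2 only. KO replicate 2 was the highest line at 22 of the 27, which include those 6, where the rule fixes it.

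In Sema5a, a guidance receptor and ligand, 3 intronic sites were open in KO replicate 2, the strongest with 66, 24, 6 and 301 in WT replicates 1 and 2 and KO replicates 1 and 2. At that site WT replicate 1 stood well above KO replicate 1, so that the 3 lower lines were not alike.

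Chains in the other lines reached 3 sites. In WT replicate 1, 2 sites with Cadm1, a cell adhesion molecule, as the nearest gene had 99 and 97, where WT replicate 2 had 19 and 21, KO replicate 1 had 5 and 4, and KO replicate 2 had 20 and 14. The first lay in an intron of the non-coding gene Gm31816, 245988 bp from the Cadm1 TSS, and the second in an intron of Cadm1. All 5 further sites nearest Cadm1 were highest in WT replicate 1, with a median log2 ratio of 2.12. In WT replicate 2, 2 sites near the ubiquitin ligase gene Pdzrn3 were open, the stronger with 6, 64, 6 and 15 in WT replicates 1 and 2 and KO replicates 1 and 2. Of 23 further sites nearest Pdzrn3, 21 were highest in WT replicate 2. These loci, like Sema5a and Robo2 below, were picked after their values had been seen.

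Among 423 nearest genes, 51 had 2 or more sites, and at 42 of these all sites were open in the same line. At those 42 genes there were 557 further sites that did not meet the rule, and 326 (58.5%) were highest in the line that the others were open in. Weighted the same way over the lines, 26.0% of all other autosomal sites were. Genes with sites open in different lines were left out of the 58.5%. That choice was made on the same values and does not enter the 26.0%, so the gap is given as a description. Robo2, the receptor for Slit guidance cues, had 3 sites open in KO replicate 2 and 12 others, of which 11 were highest there. At Gpam, a gene of glycerolipid synthesis with 2 sites in WT replicate 2, 5 of 12 others were highest in that line and their median log2 ratio was -0.05.

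Raised values around the sites faded with distance. At other sites within 10 kb, the log2 ratio of the open line to the mean of the other 3, minus that line's median over all other autosomal sites, had a median of 0.47. It was 0.26 from 10 to 50 kb, 0.14 from 50 to 200 kb and 0.059 from 200 kb to 1 Mb. By line, the value within 10 kb was 0.43 and 0.44 for the WT lines, 0.23 for KO replicate 1 and 0.59 for KO replicate 2. KO replicate 2 was the highest and KO replicate 1 the lowest in each of the 3 bins up to 200 kb. Beyond 10 kb KO replicate 1 changed little, with 0.091 up to 50 kb, 0.092 up to 200 kb and 0.071 up to 1 Mb. Each line's median was taken over all autosomes, so that shifts of whole chromosomes, given below, enter these values.

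**Figure D4:**
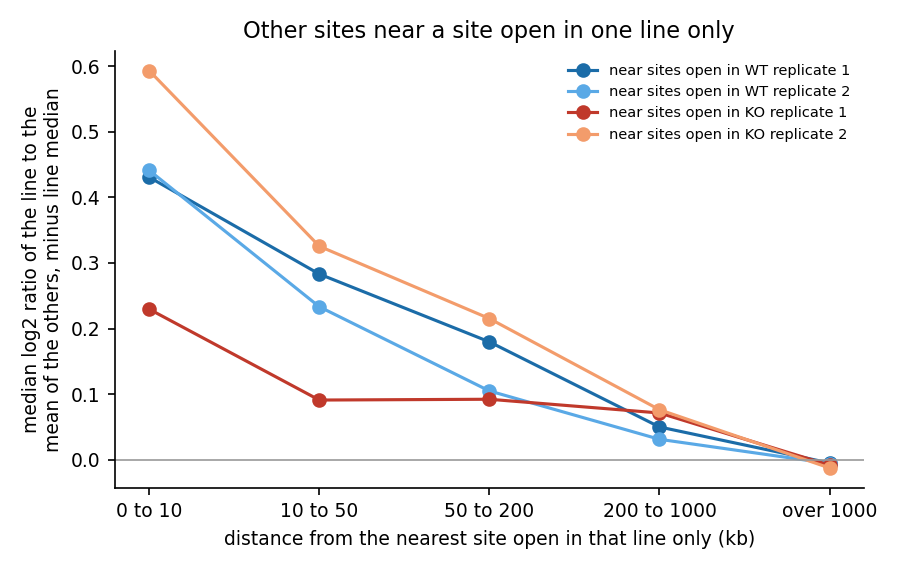
Median log2 ratio of the open line to the mean of the others, minus the line's median, at sites that do not meet the rule, by distance from the nearest site open in that line only (kb). Within 10 kb the 4 lines lie between 0.23 and 0.59, and beyond 1000 kb between -0.012 and -0.0048.

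By chromosome, the lines differed. KO replicate 1 had 15 of its 99 sites on chromosome 8, 12 each on chromosomes 12 and 14, and none on chromosome 13. WT replicate 1 had 12 sites on chromosome 14 and none on chromosome 12. KO replicate 2 had 14 sites on each of chromosomes 12 and 13, 1 on chromosome 14 and none on chromosome 19.

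Some of these numbers moved with the level of the whole chromosome. On chromosome 19, where KO replicate 1 had 9 sites, its median log2 ratio to the other lines at all other sites was 0.45, while those of the other 3 lines ran from -0.23 to -0.16. On chromosome 14 it was 0.31 for WT replicate 1, and on chromosome 12 it was -0.23 for that line. KO replicate 1 also had 12 sites on chromosome 14, where its median was -0.14, beside -0.17 in WT replicate 2 and -0.18 in KO replicate 2. Each ratio is to the mean of the other lines, so a rise in WT replicate 1 lowers the rest. On chromosomes 8 and 12, KO replicate 1 stood at 0.035 and 0.034, near 0. When each chromosome of each library was centred, an alternative chosen after seeing the data, 102, 109, 89 and 157 sites met the rule in WT replicates 1 and 2 and KO replicates 1 and 2. Of these, 90, 96, 82 and 148 were among the original ones.

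**Figure D5:**
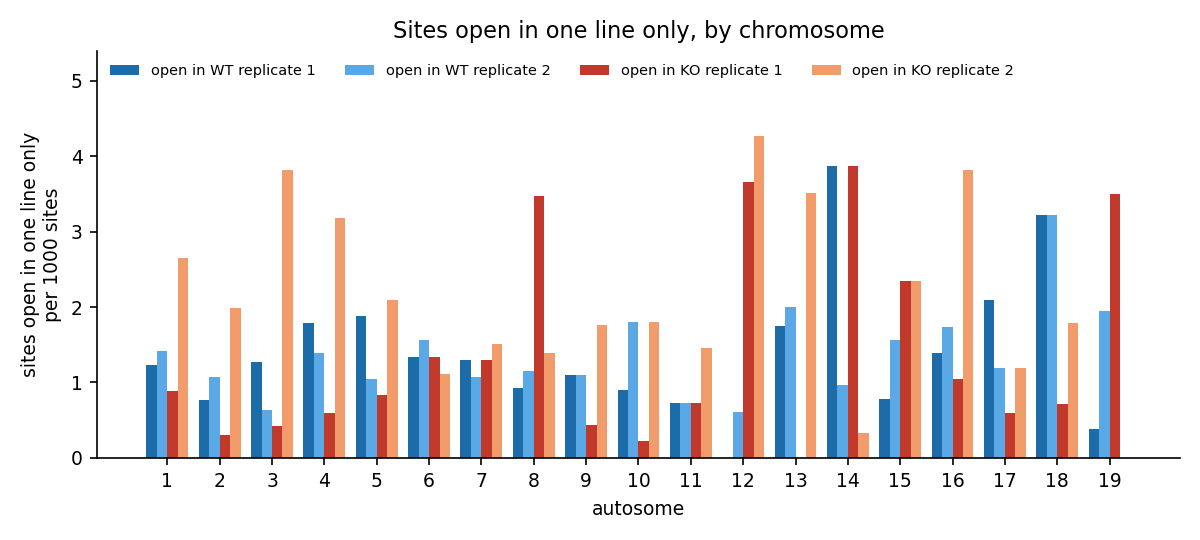
Sites open in one line only per 1000 accessible sites (vertical axis) on each autosome (horizontal axis), with 1 bar per line. KO replicate 1 reaches 3.47 on chromosome 8 and 3.50 on chromosome 19, and WT replicate 1 and KO replicate 1 both reach 3.88 on chromosome 14.

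The nearest genes included transcription factors of embryonic position more often than accessible sites in general did. Of 95 such genes (Hox, Tbx, Pitx, Hand, Dlx and other families), 8 were nearest to 11 of the 485 sites (2.27%), against 0.656% of all autosomal sites. WT replicate 1 had 6 of the 11, KO replicate 1 had 3, and WT replicate 2 and KO replicate 2 had 1 each. Hand2 alone was nearest to 3 of them and Pitx1 to 2. The list was chosen with earlier results of these data known, the comparison was not matched for distance to a TSS, and no test was made.

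Hand2, a factor of the posterior limb bud, heart and branchial arches, had 2 sites open in KO replicate 1. At chr8:57314273-57314761, over the TSS of its antisense neighbour Hand2os1 and shown in sequence above, WT replicates 1 and 2 had 20 and 6, KO replicate 1 had 146 and KO replicate 2 had 11. At chr8:57332267-57332466 they had 10, 6, 72 and 2 in the same order. Another site, 40063 bp from the Hand2 TSS, was open in WT replicate 1 instead, with 67, 14, 15 and 21. One gene thus carried sites open in lines of both genotypes.

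Dlx2, a homeobox gene of the branchial arches and forebrain, had a site open in KO replicate 1 that lay 1168 bp from the TSS of Dlx1as. Its values were 25, 3, 165 and 14 in WT replicates 1 and 2 and KO replicates 1 and 2. Pitx1, which specifies the hindlimb, had 2 sites open in WT replicate 1 that lay about 1 kb apart, at chr13:55824189-55824573 with 136, 28, 25 and 17 and at chr13:55825213-55825412 with 54, 14, 5 and 12. Tbx4, a T-box gene that acts with Pitx1 in the hindlimb, had a site 1418 bp from its TSS, also open in WT replicate 1, with 88, 4, 25 and 9. WT replicate 1 thus held open sites at both genes, and the second line differed between them.

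The remaining sites of this list are named because they are few. At the TSS of Alx1, a homeobox gene of the craniofacial mesenchyme, the values were 50, 14, 5 and 9 in WT replicates 1 and 2 and KO replicates 1 and 2. Tbx18 had a distal site open in WT replicate 2 with 19, 70, 22 and 12, and Irx2 one open in KO replicate 2 with 20, 9, 19 and 63. Gata6 had an intronic site of a neighbouring non-coding gene, open in WT replicate 1 with 54, 10, 17 and 5.

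The other lists made up smaller multiples of their share among all sites. Of 99 genes of signalling ligands and receptors, 13 were nearest to 16 sites (3.30% against 1.66% of all autosomal sites), 9 of them open in KO replicate 2. Examples were Pdgfc, a platelet-derived growth factor ligand, with 18, 11, 17 and 99 in WT replicates 1 and 2 and KO replicates 1 and 2, and Cxcl12, a chemokine, with 11, 14, 82 and 14. An intronic site of Nrg3, a ligand of the ERBB4 receptor, was open in WT replicate 1 with 59, 3, 4 and 0. These 3 sites were open in 3 different lines.

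Of 65 genes of matrix and adhesion, 8 were nearest to 10 sites (2.06% against 1.06%), 6 of them open in WT replicate 1. A site near Col5a2, a fibrillar collagen gene, was open in KO replicate 1 with 126 against 16, 16 and 18 in WT replicates 1 and 2 and KO replicate 2, and repeats covered 95.4% of it. Of 43 mesenchymal transcription factors, 8 were nearest to 1 site each (1.65% against 1.00%), among them Nfib, with 77 in KO replicate 2 and 6, 7 and 10 in WT replicates 1 and 2 and KO replicate 1. None of the 485 sites was nearest to an AP-1 gene, or to a marker of fibroblasts, epithelium, endothelium, blood, nerve, muscle or germ cells. These lists are short: AP-1 genes were nearest to 0.0845% of all autosomal sites, fibroblast markers to 0.216% and each other marker list to at most 0.0646%, so that nothing is read from these zeros.

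KO against WT is the comparison the study was designed for. The thresholds used here were borrowed from its analysis of primary MEFs. With limma on log2(value + 1), an unadjusted p under 0.01 and a 2-fold change, 4 of the 485 sites (0.825%) were called, against 307 of 82325 sites (0.373%). No site of the table had an adjusted p under 0.05 in limma. An unadjusted p under 0.05 in limma was found at 2579 of the 82325 sites, fewer than that threshold passes when nothing differs. The rule and this fit share their values, so nothing is read from the 4 calls.

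At each of the 4 called sites the second line was of the same genotype as the open one. Near Ppp1r3b, a glycogen-targeting subunit of protein phosphatase 1, WT replicates 1 and 2 had 2 and 5, KO replicate 1 had 243 and KO replicate 2 had 60 (log2 fold change 4.85, higher in both KO lines, adjusted p = 1 in limma). Near Prmt6, an arginine methyltransferase, the values were 92, 22, 3 and 3, and in Negr1, a neuronal adhesion molecule, they were 122, 35, 9 and 11. Near Api5, an inhibitor of apoptosis, they were 27, 86, 5 and 8. The rule and the calls together fix this pattern, so it is given as a description.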

How the data were processed

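ATAC-Seq was performed on 2 HAT1+/+ and 2 HAT1-/- lines. Per the study's methods and the submitters' processing notes, BWA 0.7.12 mapped the read pairs to mm10, MACS2 2.1.0 called the peaks and DESeq2 compared them. The deposited values, headed normalized counts by the authors, are treated as a score. From their whole numbers and the gaps among low values, they appear to be read counts per site divided by a factor per library and rounded, and the depth estimates rest on that reading. Columns of the authors' fold changes and p-values were not used. Read filters and the Tn5 offset are not given in the sources used here.

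Sites were annotated with GENCODE M21 and RefSeq's GRCm38 in Python 3.11.15 with pandas 2.3.3. Promoter sites lay within 3 kb of a TSS, and chains joined sites of a line with gaps up to 1 Mb. Copies (90% identity, 80% cover) were sought with minimap2 2.31. KO against WT was fitted with limma 3.58.1 in R 4.3.3 on log2(value + 1) over all 82325 sites, since these values are not raw counts. On simulated data it called 197 of 200 sites changed by a log2 fold of 2, and 334 unchanged ones. The simulation gave every site the same normal spread on the log2 scale and drew the changed sites above a minimum mean value. Its numbers therefore do not measure power or false calls in the real data, where 307 sites were called in all. Depth was estimated from the spacing of low values. The p-values rest on the spread between lines of 1 library each, which holds the spread between libraries too, and limma moderates it across sites. The members, lists and motifs were chosen with earlier results of these data known. Named were, per line, the 5 sites with the largest ratio, 3 further promoter sites, the largest value and the longest chain, plus up to 3 sites per gene list. Of the named sites, those the results turn on are described, and some items are not reported here.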

Additional observations from a re-analysis of the deposited data

How the results depend on the processing

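No threshold or scaling tried removed the sites from any line, but the numbers moved with the rule. For WT replicates 1 and 2 and KO replicates 1 and 2 in turn, a floor of 30 gave 197, 181, 132 and 318 sites, a floor of 100 gave 20, 28, 41 and 49, a ratio of 2 gave 369, 451, 536 and 757, a ratio of 5 gave 29, 13, 19 and 23, and an offset of 5 gave 68, 54, 60 and 101. Requiring 70 estimated reads, added after seeing the data, gave 76, 104, 62 and 40. Equal totals, quantile normalization (99, 99, 95 and 191) and centred chromosomes kept each number within 1.5 times. Leaving out a line loosens the rule, since fewer values must be low, and gave 214 to 252, 174 to 374, 152 to 342 and 210 to 580. The promoter share was 18.3 to 21.7% with a line left out and 9.48% for promoters within 1 kb. The intergenic share was 50% with a floor of 100 or a ratio of 5, and 40.0 to 42.2% with a line left out. The median TSS distance was 38.2 to 49.3 kb with a line left out and 17.7 kb to a TSS of any gene. The share with a same-line neighbour was 11.1% within 100 kb, 12.3% with a floor of 100, 14.3% with a ratio of 5 and 34.6 to 53.0% with a line left out, and the longest chain had 3 sites with either stricter rule and 6 to 10 with a line left out. Other sites within 50 kb had a median log2 ratio of 0.28 above the line median, which was 0.47 up to 10 kb, 0.14 from 50 to 200 kb, 0.059 from 200 kb to 1 Mb and 0.23 to 0.31 with a line left out. KO against WT called 307 sites, 115 of the sites with a mean at or above the median, 0 at an adjusted p under 0.05, 71 without WT replicate 1, 36 without WT replicate 2, 274 without KO replicate 1 and 612 without KO replicate 2. The cause was not tested. Of 264 recomputed log2 ratios of the 44 named sites, 33 moved by more than the spread of the other lines, 30 of them with a pseudocount of 8. Their direction is fixed by the choice of the sites.

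No paired analysis was possible because lines were numbered here in accession order, which names them and pairs nothing. The sample titles of WT replicate 1 and KO replicate 2 share a line number, and whether these lines came from the same litter is not given in the sources used here. Count models were not run, since the values are not raw counts. With 1 library per line, counting error and the spread between cultures of a line could not be measured apart, and values in KO replicate 2 rest on the fewest reads.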

Other observations

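Sites open in a pair of lines were counted by the same floor and ratio, applied to the second largest value and the one below it, after the data had been seen. There were 252, of which WT replicate 2 with KO replicate 2 had 108, both WT lines had 50, WT replicate 1 with KO replicate 2 had 43, WT replicate 1 with KO replicate 1 had 34 and WT replicate 2 with KO replicate 1 had 14. Both KO lines shared 3. Of the 6 possible pairs of lines 4 are of unlike genotype, and a single pair gave the largest count, so nothing is read from the order. No test was made.

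On the X chromosome, which the rule leaves out, 3 of 1844 sites met the thresholds in WT replicate 1, 1 in WT replicate 2, 1 in KO replicate 1 and 0 in KO replicate 2. Sites closed in one line only numbered 12 there in KO replicate 2, 3 in KO replicate 1, 1 in WT replicate 2 and 0 in WT replicate 1. The promoter site of Hat1, the deleted gene, had 390, 384, 438 and 368 in WT replicates 1 and 2 and KO replicates 1 and 2, so that its values overlapped between the genotypes. Whether this site lies in the deleted part of the gene is not given in the sources used here, so it does not check the labels.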
